A study of Hernandia nymphaeifolia with 9 samples.

Results

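The leaf response of Hernandia nymphaeifolia seedlings to 14 days of salt water was described from 6 of the 9 libraries of the series. The features were assembled genes, each the sum of all transcripts that share an identifier up to the final isoform number. The deposited values covered 315331 assembled genes, of which 293357 had a count in at least 1 of the 6 libraries and 62564 had enough counts over the 3 groups of the series to be tested. The control group (CK) consisted of 3 seedlings given fresh water, and the salt group of 3 seedlings given 300 mM NaCl for 14 days. All seedlings were 2 years old and were flooded to the branches for 3 h in each 12 h, so flooding was common to both groups. Each library came from the leaves of 1 seedling. Another group of 3 seedlings at 7 days of salt entered the filter on low counts, the scaling and the estimate of spread. It is otherwise given only beside the 4 named genes and in checks of replicates and of left-out libraries. The labels give no sampling day for the controls, so that time in the experiment and time under salt cannot be told apart.

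Hernandia nymphaeifolia is a coastal tree that lives beside mangroves without being a true mangrove. Salt water reaches leaves first as a lack of water and later as sodium and chloride carried up in the transpiration stream. Leaves of plants in general answer with abscisic acid signalling, closure of stomata, storage of sodium in vacuoles, compatible solutes and changes in photosynthesis and growth. Which of these processes the assembled genes serve could not be examined, since the files pair the identifiers with no names or functions. The genes are therefore described by direction, size, abundance and seedling. In whole leaves, fewer cells of a type and less RNA per cell cannot be told apart.

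Total estimated counts ran from 13373952 to 14201943 in the 6 libraries, and the tested genes held between 97.3% and 97.8% of them. A count of 3 was worth 0.213 to 0.230 CPM (counts per 1000000, scaled by TMM). Salt replicate 3 had the most genes with a count, 195623 against 183972 to 192037 in the other 5 libraries. On the 500 most variable genes, salt replicate 3 lay 47.5 and 52.2 log2 units from salt replicates 2 and 1, which were 26.4 apart. Control replicate 1 stood apart in a like way, at 49.5 and 47.0 from control replicates 2 and 3, which were 19.9 apart. Every control lay farther from every salt library than that, at 86.4 to 99.2. Along the first principal component (75.9% of variance) the controls were at -42.5 ± 1.40 (SD, n = 3) and the salt libraries at 42.5 ± 7.85 (SD, n = 3), with salt replicate 3 the nearest to the controls at 35.1. The mean distance between groups exceeded that within groups by 51.2, with an exact two-sided permutation p = 0.1 over 20 assignments, the smallest that 3 seedlings against 3 allow.

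**Figure D1:**
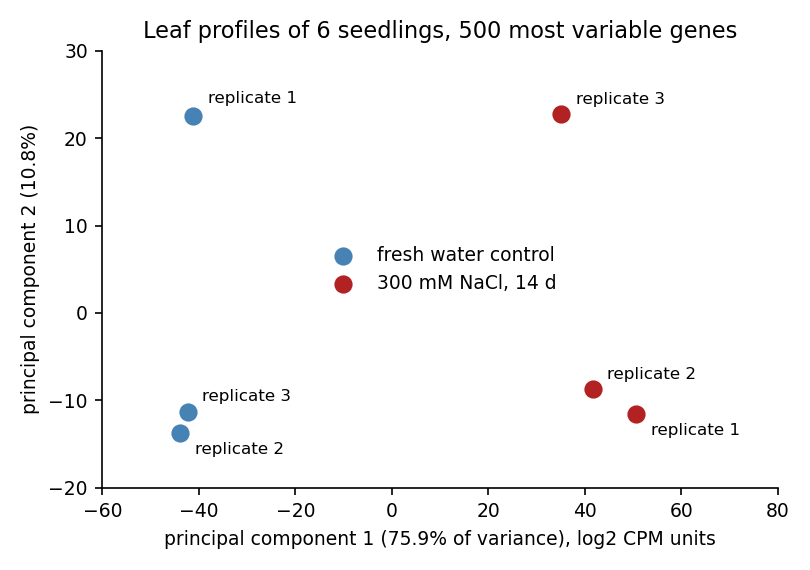
First and second principal components of log2 CPM over the 500 most variable assembled genes, 1 point per seedling. The first axis (75.9% of variance) separates the 3 control from the 3 salt libraries, and control replicate 1 and salt replicate 3 lie apart from the rest of their groups on the second (10.8%).

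The first question was how many assembled genes differed in the leaf after 14 days of salt. Of the 62564 tested genes, 10237 (16.4%) passed edgeR's quasi-likelihood test at an adjusted p below 0.05, with 4984 (7.97%) that rose and 5253 (8.40%) that fell. Genes that rose did so by a median log2 change of 1.36, with quartiles at 0.92 and 2.05. Genes that fell had a median of -1.11, with quartiles at -1.62 and -0.77. Over all tested genes the median change was 0.01 and the median absolute change 0.36. A fitted change of at least 2-fold was reached by 3488 of the genes that rose and 3035 of those that fell, and one of at least 4-fold by 1305 and 805. Another 882 called genes changed by less than 1.5-fold. An unadjusted p under 0.05 was found for 18271 genes.

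Which direction held more genes depended on scaling, since with total counts alone 57.2% of 10230 calls were higher against 48.7% here. Leaving out salt replicate 3 gave 10638 calls (16.0% of 66367), and 8349 genes were called in the same direction with and without it. Leaving out control replicate 1 gave 9573 calls (14.4% of 66615), of which 7973 were among the 10237 in the same direction.

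**Figure D2:**
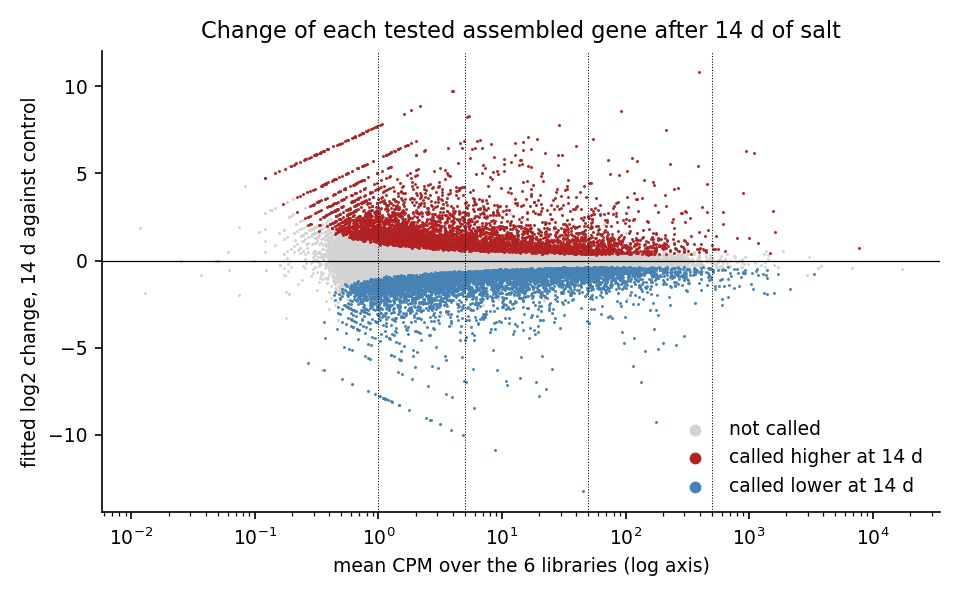
Fitted log2 change (14 d of salt against control) of each of the 62564 tested assembled genes against its mean CPM over the 6 libraries, on a log axis, with dotted lines at 1, 5, 50 and 500 CPM. Called genes (4984 higher, 5253 lower) include smaller changes as abundance grows. Points on straight diagonals are genes without a count, or with very few, in 1 group, whose fitted change has no measured size.

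The genes that rose held a larger share of the counts under salt and those that fell a smaller one, which follows from how they were picked. In the controls the genes that rose held 6.71, 6.80 and 7.09% of all counts, and in the salt libraries 17.7, 15.8 and 15.8%. The genes that fell held 24.6, 22.5 and 24.3% in the controls and 12.6, 13.8 and 12.8% under salt. Salt replicate 3 thus lay within 0.1 percentage points of salt replicate 2 in the first share and between both other salt libraries in the second. These shares describe genes picked by the same test and do not test it. The gain was concentrated: the 10 genes with the largest gains in CPM made up 18.2% of the summed gain, and 133 genes made up 50% of it. For the losses the 10 largest made up 11.4%, and 205 genes made up 50%.

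The second question was how the response varied with abundance, in bands of the mean CPM over the 6 libraries. The share of genes called grew with abundance. It was 9.22% of 14095 genes under 1 CPM, 13.9% of 28165 at 1 to 5 CPM, 23.1% of 15677 at 5 to 50 CPM, 29.5% of 4507 at 50 to 500 CPM and 54.2% of the 120 genes at 500 CPM or more. The share with a called change of 2-fold or more followed another course. It was 9.22, 11.2, 10.3 and 9.50% in the first 4 bands, and 25% at 500 CPM or more. Under 1 CPM all 1299 called genes had changed at least 2-fold, while at 50 to 500 CPM 428 of 1330 had.

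A size of effect that uses no threshold was taken as the root of the mean squared log2 difference between the groups after subtracting the part from the spread within them. It was 0.62 under 1 CPM, 0.65 at 1 to 5, 0.71 at 5 to 50 and 0.71 at 50 to 500 CPM, and 1.24 at 500 CPM or more. Without salt replicate 3 the 5 values were 0.66, 0.69, 0.75, 0.73 and 1.32. The prior count of 2 added before the logarithm lowers the value of the rarest band. The bands average both groups, so a large rise can itself lift a gene into the top band, which holds only 120 genes. TRINITY_DN568_c0_g3, named below, is an example, at 23.8 CPM in the controls and 1868 CPM under salt. The median absolute fitted change, from which no spread is subtracted, was 0.48, 0.37, 0.28, 0.25 and 0.55 in the 5 bands. The SD between seedlings of a group fell over the first 4 bands, from 0.52 to 0.44, 0.34 and 0.29, and was 0.36 in the last. With this prior count, the root mean squared difference thus varied by less than 1.2-fold from under 1 to 500 CPM. Over the same bands the share of genes called grew and the spread narrowed. How far the prior count lowers the difference and the SD under 1 CPM was not examined. The part that the spread played in the share called was not tested.

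**Figure D3:**
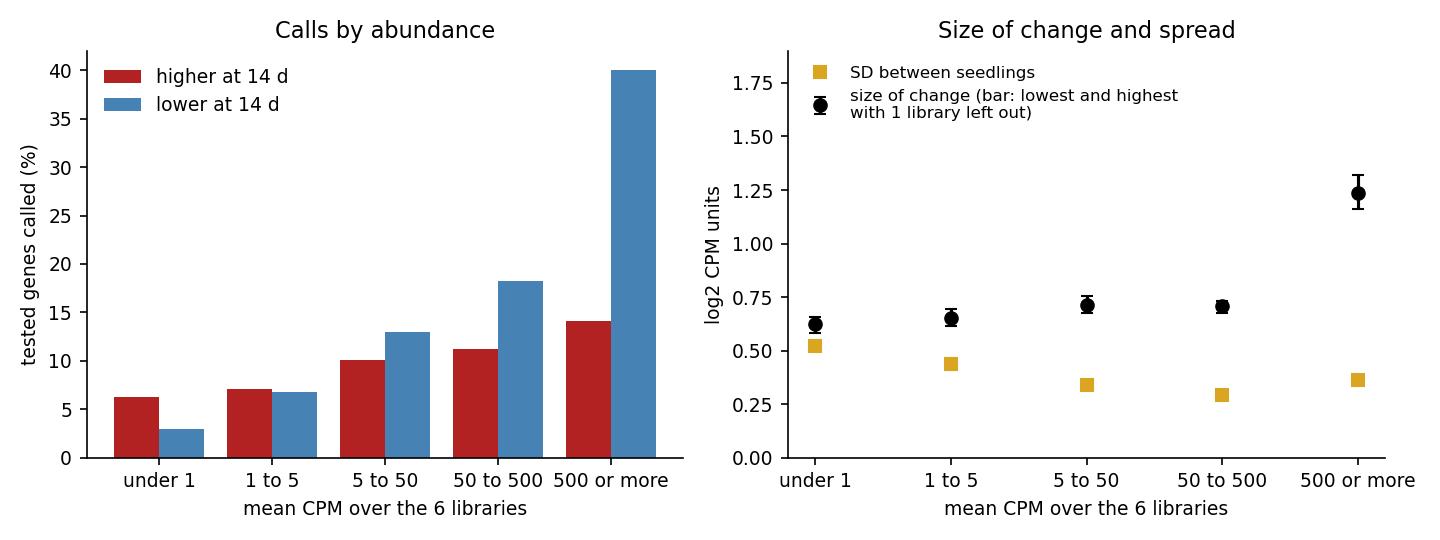
Left, percentage of tested genes called higher or lower at 14 d of salt in 5 bands of mean CPM. Right, root mean squared log2 difference between groups after subtraction of the spread (points, with bars from the lowest to the highest value when each of the 6 libraries is left out) and the SD between seedlings of a group (squares). Calls rise from 9.22% to 54.2% of genes, the size of change is between 0.62 and 0.71 in the first 4 bands, and 48 of the 65 called genes in the top band fell.

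Rare and abundant genes were split differently between the directions. Among called genes under 1 CPM, 882 rose and 417 fell, so that 67.9% were higher. At 1 to 5 CPM the numbers were nearly even, 1992 and 1926. Fewer rose than fell at 5 to 50 CPM, 1586 against 2039, at 50 to 500 CPM, 507 against 823, and at 500 CPM or more, 17 against 48. Among all called genes at 50 CPM or more, 37.6% were higher. This share was between 34.2 and 47.1% under the alternatives tried, with the upper value from scaling by total counts. The share under 1 CPM was between 53.0 and 73.6%, with the lower value from testing without a filter on low counts. That filter drew on the earlier salt group as well. Rare genes high under salt thus had more libraries through which to pass it than rare genes high in the controls. In a fit of only the libraries compared the share under 1 CPM was 62.1%. The share also depended on single libraries. Without control replicates 1, 2 and 3 in turn it was 58.2, 58.3 and 54.5%. Without salt replicates 1, 2 and 3 it was 73.6, 69.4 and 65.2%. Without 7 d replicates 1, 2 and 3 it was 62.2, 63.0 and 61.4%. How far the filter shaped the 67.9% was not tested.

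The 120 genes at 500 CPM or more made up 15.2 ± 1.51% (SD, n = 3) of each control library and 13.5 ± 0.786% (SD, n = 3) of each salt library, a difference about as large as the spread between the controls and not tested. All 65 of the called genes among them had groups that did not overlap. The median log2 change was 1.31 for the 17 that rose and -0.81 for the 48 that fell.

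The third question was which part of the response held in all 3 salt seedlings. Of the 10237 called genes, 9901 (96.7%) had all 3 salt libraries on the called side of all 3 controls, against 20156 (32.2%) of all tested genes on either side. A gene with groups that overlap passes the test with difficulty, so the high share among called genes comes in part from the call itself. By direction, 4797 of the genes that rose and 5104 of those that fell had no overlap. The other 336 called genes were mostly ones that salt replicate 3 did not share: in 215 of them replicates 1 and 2 lay beyond all controls and replicate 3 did not. The matching count was 56 for genes that replicate 2 did not share and 29 for replicate 1.

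A stricter rule asked that each salt seedling differ from the control mean by at least 2-fold. It was met by 3863 called genes, 2165 higher and 1698 lower, or 37.7% of the calls, against 6.45% of all tested genes (3.72% higher and 2.74% lower). Over all tested genes the share that met it was 6.74, 6.25, 6.46 and 6.39% in the first 4 bands and 22.5% at 500 CPM or more. Among called genes, which under 1 CPM had all changed at least 2-fold, the shares were 65.5% under 1 CPM, 43.5% at 1 to 5 CPM, 27.4% at 5 to 50 CPM, 21.7% at 50 to 500 CPM and 41.5% at 500 CPM or more. When salt replicate 3 was left out of both the test and the rule, 6162 genes met it. Leaving out salt replicate 1 or 2 in the same way, also with 1 seedling fewer to satisfy, gave 4107 and 4689. With any library left out more genes pass the filter. Leaving out 7 d replicate 1, 2 or 3, which keeps all salt seedlings at 14 d in the rule, gave 4138, 4146 and 4103.

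Calls were also repeated with each of the 6 libraries left out. Of the 10237 genes, 5914 (57.8%) were called in the same direction without each of the 3 salt seedlings in turn, and 5667 (55.4%) also without each control. The latter comprised 2781 genes that rose and 2886 that fell. Leaving out a library also removes power, so a lost call does not show that the gene depends on that seedling. Genes that kept their call without each library, had groups that did not overlap and differed 2-fold in each salt seedling numbered 3291, of which 1805 rose and 1486 fell. Their median abundance was 3.01 CPM, against 4.72 CPM over all called genes and 2.23 CPM over all tested genes.

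Salt replicate 3 was next compared with genes chosen without it. In the 10638 genes called from salt replicates 1 and 2 and the controls, salt replicate 3 lay beyond all 3 controls on the called side in 8947 (84.1%). Over all genes tested there, 50.8% had replicate 3 beyond the controls on the side of the fitted change. The same was done for the other seedlings in turn. Replicate 1 lay beyond the controls in 98.0% of the 7147 genes (10.7% of 66853) called without it, and replicate 2 in 96.1% of the 8081 (12.2% of 66418) called without it. For replicate 3, 809 genes (7.60%) were on the other side of the control mean, against 32 (0.448%) for replicate 1 and 68 (0.841%) for replicate 2. The median difference of replicate 3 in the called direction was 0.96 on the log2 scale, where the 2 seedlings that chose the genes had 1.28. For replicate 1 the pair of values was 1.30 and 1.36, and for replicate 2 it was 1.13 and 1.37. The controls served both to choose the genes and to measure the left-out seedling, which raises all 3 shares. The pairs that chose the genes were also unlike. On the most variable genes replicates 1 and 2 lay 26.4 log2 units apart, and replicate 3 lay 52.2 and 47.5 from them. Replicates 1 and 2 were thus each measured on genes that their nearer seedling helped to choose, and replicate 3 was not. The 3 shares and medians are therefore not on equal terms.

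The share that replicate 3 met grew with abundance, from 79.7% of 1694 genes under 1 CPM to 83.0%, 85.3% and 89.6% in the next bands, and was 89.6% of 67 genes at 500 CPM or more. The same share over all genes tested there also grew with abundance, from 45.7% to 48.7, 57.0, 61.6 and 73.3%. Replicate 1 met between 96.3% and 100% in every band, and replicate 2 between 91.4% and 100%.

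**Figure D4:**
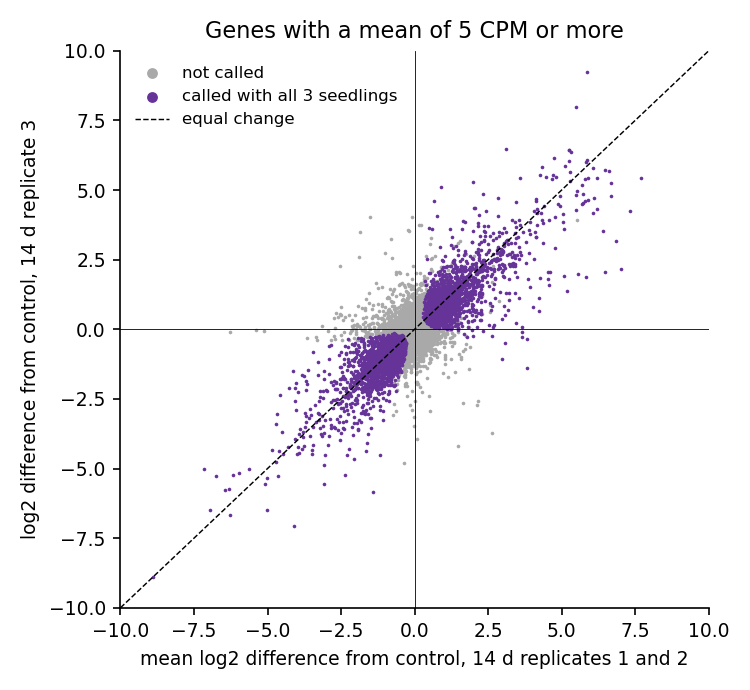
Log2 difference from the control mean in salt replicate 3 (vertical) against the mean of the same difference in salt replicates 1 and 2 (horizontal) for the assembled genes that averaged 5 CPM or more, called genes in purple and the line of equal change dashed. Most called genes lie along the line in 2 opposite quadrants. Genes far from the line include 742 in which replicate 3 was at least 2-fold above or below both other salt seedlings.

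Over genes at 5 CPM or more, the distance of salt replicate 3 from the controls lay between those of the other 2 salt seedlings. The same spread was subtracted for each, so a larger deviation of a single seedling stays in its value. On the most variable genes used above, replicate 3 was instead the salt library nearest to every control. There it lay at 86.4 to 88.8 log2 units, against 87.3 to 90.5 for replicate 2 and 96.2 to 99.2 for replicate 1. Over the 20304 genes that averaged 5 CPM or more, the root mean squared log2 difference from the controls, after the same spread was subtracted for each, was 0.76 in replicate 1, 0.67 in replicate 2 and 0.72 in replicate 3. The slope of its log2 differences on the mean of the other 2 salt seedlings, with the noise of the shared controls and of the predictor subtracted, was 0.824, where it was 1.20 for replicate 1 and 1.02 for replicate 2. Set against 1 other seedling it was 0.877 on replicate 1 and 1.0 on replicate 2. These slopes are descriptions across genes of the same 6 libraries.

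In 742 (3.65%) of the 20304 genes, salt replicate 3 was at least 2-fold above (in 392 genes) or below (in 350) both other salt seedlings. The same count was 50 genes (0.246%) split as 34 and 16 for replicate 1, and 31 (0.153%) split as 7 and 24 for replicate 2. Control replicate 1 stood apart from its group in the same sense in 533 genes (2.63%), and control replicates 2 and 3 in 0.0837% and 0.532%. Of the 742 genes, 263 had replicate 3 and the mean of replicates 1 and 2 beyond the controls on the same side, so that only the size differed. In 163 genes replicate 3 was within the range of the controls while the others were outside it. In 145 genes it was outside while the others were within, and in 151 genes it lay on the opposite side of the controls. Of the 742, 283 (38.1%) were among the called genes, against 5020 (24.7%) of the 20304. These genes were picked for their values, and the counts carry no test.

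Some called genes were not detected in 1 group. Such genes passed the filter on low counts only through the other groups, so their number carries no test. Of the 79 tested genes without a count in the 3 controls, 67 were called higher, 59 of them with counts in all 3 salt libraries. Their mean level under salt was 0.242 to 8.05 CPM, with a median of 0.923 CPM. Conversely, 33 tested genes had no count in the 3 salt libraries, and 28 of them were called lower. These 28 had 0.538 to 90.6 CPM in the controls, with a median of 2.35 CPM. Their absence is not shown, since a level under that of 3 counts (0.213 to 0.230 CPM) would not be seen reliably in a library.

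Of the called genes, 5936 had 1 tested isoform and 192 had none, so isoforms could be compared in the others. Among the 4109 called genes with 2 or more tested isoforms, 3191 (77.7%) had an isoform called in the direction of the gene and 914 (22.2%) had none called. Isoforms were called in both directions in 74 genes (1.80%), and in 4 genes only against the direction of the gene. Among the 14612 genes with 2 or more tested isoforms that were not called, 1537 had a called isoform and 108 had isoforms called in both directions. Over all 98906 tested transcripts 11087 (11.2%) were called, a share per transcript and not per gene. Reads shared by isoforms are divided by estimate, so calls of single isoforms are less certain than those of their sum. Genes with 1, 2 to 4 and 5 or more isoforms in the assembly were called in 15.1, 16.9 and 19.6% of cases. This order was not found within bands of abundance, where the 3 shares were 10.1, 7.57 and 7.58% under 1 CPM, 14.4, 13.5 and 12.6% at 1 to 5 CPM, 24.8, 23.4 and 20.1% at 5 to 50 CPM, 29.2, 30.0 and 28.9% at 50 to 500 CPM, and 69.0, 46.7 and 54.8% at 500 CPM or more.

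At most 4 genes are named here, by size of change and by counts moved. TRINITY_DN568_c0_g3 had the largest rise among called genes with at least 10 counts in each library. It stood at 23.6, 25.1 and 22.7 CPM in the controls and at 2579, 1754 and 1272 CPM in the salt seedlings. All salt values were far above all controls, and replicate 3 was the lowest of the 3. The log2 change was 6.29 ± 0.286 (SE, n = 3 per group), 78.5-fold (edgeR quasi-likelihood adjusted p = 1.71e-07). The 7 d seedlings had 2571, 1588 and 1786 CPM, a range that overlaps that at 14 d. The gene has 1 isoform in the assembly, and the other 3 tested genes of its assembly component were not called.

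TRINITY_DN7280_c0_g3 gained the most CPM of any called gene without overlap. Its controls had 6775, 5081 and 5728 CPM and its salt seedlings 11320, 8170 and 9415 CPM. The lowest salt value was above the highest control, and replicate 3 lay between the other 2. The log2 change was 0.72 ± 0.155 (SE, n = 3 per group; edgeR quasi-likelihood adjusted p = 0.00664). At 7 d the values were higher than at 14 d in every seedling, at 16710, 17020 and 20900 CPM. All 3 isoforms were tested, 2 rose and none fell. The most abundant isoform held 88.8% of the gene's counts in the controls and 90.5% under salt. Of the 4 tested genes of its assembly component, itself included, 2 were called higher and 1 lower.

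TRINITY_DN34560_c0_g1 had the largest fall among called genes with at least 10 counts in each library. It went from 404, 109 and 164 CPM in the controls to 2.35, 2.72 and 4.97 CPM under salt. The controls differed by more than 3-fold among themselves, with replicate 1 the highest, and salt replicate 3 was the highest of its group. The log2 change was -6.07 ± 0.473 (SE, n = 3 per group), 67.1-fold lower (edgeR quasi-likelihood adjusted p = 3.63e-06), and without control replicate 1 it was -5.35, 40.7-fold lower. At 7 d it had 16.3, 13.9 and 13.6 CPM, between both groups. Both of its isoforms were called lower.

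TRINITY_DN2597_c6_g1, with 1 isoform, lost the most CPM. It fell from 3611, 2924 and 3139 CPM in the controls to 986, 1067 and 1079 CPM, and the salt seedlings varied little, at 1044 ± 50.4 CPM (SD, n = 3). The log2 change was -1.63 ± 0.136 (SE, n = 3 per group), 3.09-fold lower (edgeR quasi-likelihood adjusted p = 6.23e-06). The values at 7 d, 1645, 2152 and 2116 CPM, lay between the groups. All 4 genes kept their direction and their call under every alternative run on genes, each library left out included, with adjusted p of at most 0.0308.

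**Figure D5:**
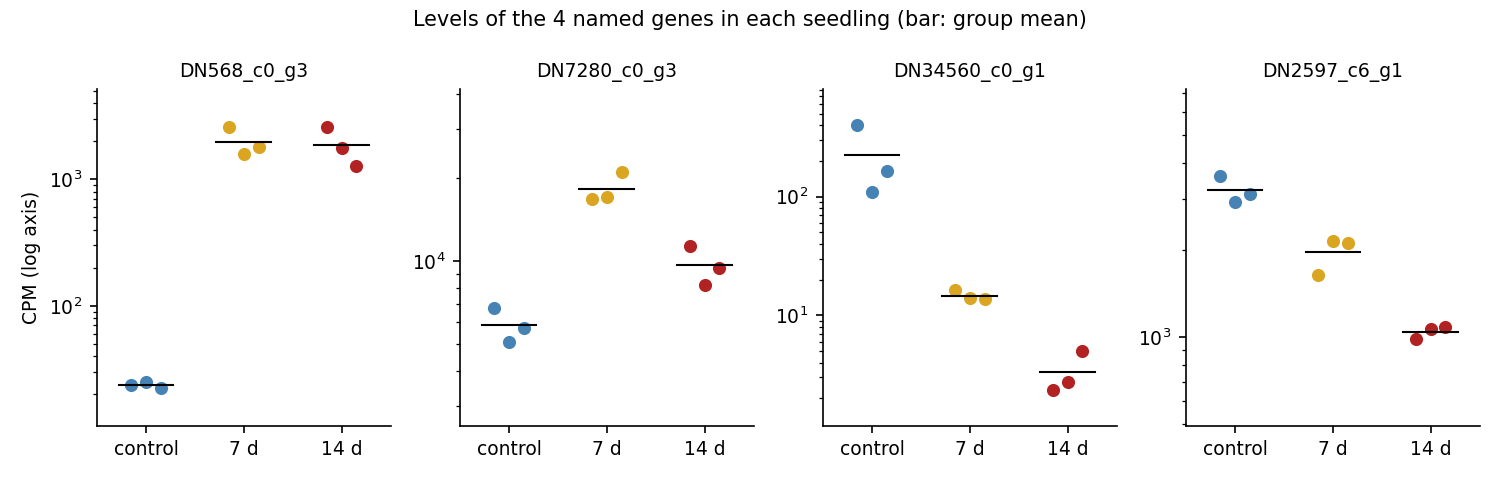
CPM (log axes, a scale of its own in each panel) of the 4 named assembled genes in each seedling of the control, 7 d and 14 d groups, with group means as bars and replicates 1 to 3 from left to right. In each panel the 3 salt seedlings at 14 d lie on 1 side of the 3 controls.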

How the data were processed

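Per the labels' protocols, polyadenylated RNA was taken from the leaves of 9 seedlings and read as DNA nanoballs. The authors deposited estimated counts per assembled transcript, unscaled and all whole numbers, so rounded. Per the submitters' processing notes, the tools were Salmon, HISAT2 and FastQC, with neither roles nor versions. The identifiers have Trinity's form, and the assembly settings were not given in the sources used here. Expected counts were summed per assembled gene. Transcript lengths were not used, so a shift between isoforms of unlike length can move a gene's sum.

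In R 4.3.3, edgeR 4.0.16 kept genes by its expression filter (minimum count 10, minimum total 15), scaled by TMM and fitted a group-means quasi-likelihood model to all 9 libraries (biological coefficient of variation 0.193). A gene was called where its p, adjusted by Benjamini-Hochberg over all tested genes, was below 0.05. The SE of a log2 change is the change divided by the root of the F statistic. CPM used TMM-scaled sizes, and log2 CPM a prior count of 2. No 2 replicates were alike within counting noise, with chi-square values of 4.93 to 18.0 per degree of freedom. The test was checked on simulated counts. Named genes had to be called, without overlap and at 5 CPM or more: per direction the largest change with 10 counts in each library, and the largest difference in CPM.

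The alternatives tried were limma-voom (limma 3.58.1) and DESeq2 1.42.0, changed scaling, filters and thresholds, transcripts not summed, a fit of 6 libraries, a replicate block and each library left out. Members, bands and rules were chosen with earlier results of these data known. Summaries used matplotlib 3.10.9, SciPy 1.17.1 and pandas 2.3.3 in Python 3.11.15.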

Additional observations from a re-analysis of the deposited data

How the results depend on the processing

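The count of called genes kept within 1.5 times of 10237 under all alternatives but the stricter threshold, from 7147 without salt replicate 1 to 12332 without a filter. At an adjusted p below 0.01 there were 5383 calls, 2634 higher and 2749 lower, with 522 under 1 CPM, 888 at 50 CPM or more and 5367 without overlap, against 1299, 1395 and 9901 at 0.05. This follows from the threshold itself. Calls under 1 CPM numbered 3566 without a filter, which adds rare genes, and 810 in the fit of 6 libraries. Genes at least 2-fold from the control mean in each salt seedling numbered 6059 for transcripts that were not summed, and 3966 to 6162 when each library was left out, with the highest value without salt replicate 3. The mean squared log2 difference at 5 CPM or more was 0.514, 0.638 for transcripts that were not summed and 0.460 to 0.568 with a library left out. The cause of the rise for transcripts was not tested. With 1 library left out, calls numbered 7147 to 10638 (without salt replicate 3). The fit of 6 libraries called 8072, DESeq2 8819 and limma-voom 9526.

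The replicate number as a block gave 9757 calls. Deviations from group means of libraries with the same number correlated by 0.0947, -0.0544 and 0.104 over genes. Not every library correlated best with its own number. The correlations thus showed no pairing by number, but 3 libraries per group are too few to exclude it. The split of directions by band under each alternative was added after the data were examined. Low depth limits genes under 1 CPM, where a 2-fold change is a matter of few counts.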

Other observations

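Assembled genes that the assembler placed in 1 component, which can be related copies or fragments of 1 locus, did not always move together. Of 11707 components with 2 or more tested genes, 1036 had 2 or more called genes. Of these, 317 held only genes that rose, 390 held only genes that fell and 329 held both, so that 68.2% had 1 direction. With 48.7% of all calls higher, many components would have 1 direction without any link between their genes. That share was not computed. At most 5 called genes shared a component. Reads shared between genes of a component were not examined.

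The spread among the salt seedlings was not wider than among the controls over genes at 5 CPM or more. The median SD of log2 CPM was 0.167 in the salt group and 0.190 in the controls. The median absolute log2 difference was 0.134 between salt replicates 1 and 2, 0.224 between replicates 1 and 3 and 0.232 between replicates 2 and 3. In the controls the 3 pairs were at 0.197, 0.253 and 0.214. Salt replicate 3 was thus farther from both other salt seedlings than they were from each other, by distances within the range of those between controls.

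The call has no sharp edge in size. The 100 called genes nearest to the threshold (adjusted p from 0.0488 to 0.05) had a median absolute log2 change of 0.80, and the 100 nearest on the other side (0.05 to 0.0508) had 0.84. In each set 88 genes had groups that did not overlap.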
